A study of Mus musculus with 12 samples.

Results

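Cxcl9 and Cxcl10 encode chemokines of the CXC family that signal through the receptor CXCR3, and they were the 2 of the 248 inflammation-related genes tested here that encode ligands of this receptor. They were taken by name from the panel, not by their values. Cxcl11, the gene of the other CXCR3 ligand, and Cxcr3 itself were not analysed here. The genes were measured by the nanostring approach, in which colour-coded reporter probes bound to the mRNA are counted without amplification, in 6 monocyte samples from blood (MNCs) and 6 samples of the macrophages that reside in the liver, the Kupffer cells (KCs). All samples came from Balb/C mice for which the labels give no treatment and no age. F4/80, which macrophages of the mouse carry on their surface, served for the magnetic sort of both cell types. The livers were digested with collagenases before the sort and the blood was not. Cells of 4 to 5 mice were pooled for a sample (5 by the labels), so that the spread between samples, which is all the p-values measure, is a spread between pools.

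CXCL9 and CXCL10 are small secreted proteins that attract activated T cells and NK cells, which carry CXCR3. Interferon gamma, is the classical inducer of both genes. CXCL10 is also induced by type I interferons and, through NF-kB, by TNF and bacterial products, while Cxcl9 depends more narrowly on interferon gamma. Macrophages, endothelial cells and hepatocytes are all able to make these chemokines in the liver.

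Cxcl9 and Cxcl10 lie near each other on chromosome 5 of the mouse, and GRCm38.p6 has no gene for a protein wholly between them. Another gene for a protein, Art3, overlaps the stretch from Cxcl9 to Cxcl10. The annotation lists Cxcl11, on the same chromosome, as a transcribed pseudogene, and it describes strain C57BL/6J and not Balb/C. The stretches of 250 bases before the starts of both genes are printed here because both genes differed in the same direction between the cell types. They are the RefSeq sequences of GRCm38.p6, on the minus strand, written from 5′ to 3′ towards the start of the gene, at chr5:92328080-92328329 for Cxcl9 and chr5:92348890-92349139 for Cxcl10. Capitals mark the matches, on either strand, to 3 motifs: the core of the interferon-stimulated response element (GAAANNGAAA), the gamma-activated site of genes induced by interferon gamma (TTCNNNGAA) and the kappaB consensus to which NF-kB binds.
Cxcl9: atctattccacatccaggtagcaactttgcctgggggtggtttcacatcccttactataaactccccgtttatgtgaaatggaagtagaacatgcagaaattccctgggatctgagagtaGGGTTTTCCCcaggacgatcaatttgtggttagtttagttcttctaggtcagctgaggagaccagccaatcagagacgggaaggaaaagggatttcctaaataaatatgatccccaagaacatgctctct
Cxcl10: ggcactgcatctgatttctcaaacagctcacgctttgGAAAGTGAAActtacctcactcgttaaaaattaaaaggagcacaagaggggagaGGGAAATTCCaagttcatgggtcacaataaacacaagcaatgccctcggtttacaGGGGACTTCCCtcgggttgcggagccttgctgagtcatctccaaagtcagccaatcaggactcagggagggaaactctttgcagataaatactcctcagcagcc
The stretch before Cxcl10 held 1 match to the interferon-stimulated element, GAAAGTGAAA, at 213 to 204 bases before the start, and 3 matches to the kappaB consensus, 2 of which overlap each other. The stretch before Cxcl9 held 1 kappaB match, GGGTTTTCCC, at 130 to 121 bases before the start, and none to the interferon-stimulated element. Neither held a match to the gamma-activated site. Of 32851 promoter stretches of this length in the same table, 2.98% held the interferon-stimulated element, 7.02% the gamma-activated site and 23.2% the kappaB consensus. These matches describe the letters only, and binding was not measured.

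The values are counts normalized by the authors, called normalized counts here. Dividing by the factor of each lane returned 162988 to 348248 counted molecules for the monocyte lanes and 84401 to 145662 for the lanes of Kupffer cells. A gene under the highest negative control of its lane is listed at that background count, which was the case for 26 to 79 genes in the monocyte lanes and 29 to 58 in the Kupffer cell lanes. The listed background had not been multiplied by the lane factor. For monocytes it was 5 to 27 as listed and 5.63 to 15.7 after multiplication, and for Kupffer cells 7 to 14 and 11.7 to 30.4. Kupffer cell sample 4 stood apart from the other 5 in Cxcl9 and Cxcl10, so the results are given with and without it. The label check had few genes to rest on: of 10 macrophage markers 5 were analysed, of which Cd163 and Mrc1 were higher in Kupffer cells and C1qa and C1qb lower. Trem2 was at the background in all 6 Kupffer cell and 4 of 6 monocyte samples, so that no direction is given for it. Of 6 monocyte markers 3 were analysed, of which Itgb2 and Chi3l3 were higher in monocytes and Ccr2 was not distinguishable (adjusted p = 0.508). Clec4f, Timd4, Vsig4, Marco and Adgre1, which define Kupffer cells or macrophages more closely, were not analysed here.

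Cxcl9 was measured in every Kupffer cell sample and was close to undetectable in monocytes. In Kupffer cells it had 92.6, 100.5, 78.0, 801, 106.5 and 114 normalized counts in samples 1 to 6. In monocytes it stood above the background in 1 sample, sample 2, at 13.5 normalized counts, which was 12 counted molecules with a 95% Poisson interval of 6.20 to 21.0, and the other 5 samples were listed at their background of 16 to 27. The lowest Kupffer cell sample, sample 3, had 40 molecules, 4.44 times the background count of its lane, and the cell types did not overlap. Such intervals cover counting error only.
The mean of Cxcl9 was 215 ± 287 normalized counts (SD, n = 6) for Kupffer cells against 20.3 ± 4.81 (SD, n = 6) for monocytes as listed. By limma the log2 fold change was 2.75 with a standard error of 0.47 (adjusted p = 0.000213). With the 5 monocyte lanes at the higher of their listed and multiplied background and without the added 1, Cxcl9 was at least 7.01-fold higher in Kupffer cells by geometric means. Without Kupffer cell sample 4 the mean was 98.3 ± 13.9 (n = 5 samples), the log2 fold change 2.25 (adjusted p = 3.57e-07) and the limit 4.94-fold.

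Cxcl10 was measured above the background in 5 of 6 monocyte samples. It had 22.2, 29.3, 62.6, 27.2 and 39.3 normalized counts in monocyte samples 1, 2, 4, 5 and 6 and was listed at the background of 21 in sample 3. In Kupffer cells it had 111, 109.6, 140.3, 438, 126 and 125 normalized counts in samples 1 to 6. The highest monocyte sample, sample 4 with 103 counted molecules, was below the lowest Kupffer cell sample, sample 2 with 60 molecules in a lane of lower depth, so that the cell types did not overlap on the normalized scale.
Its mean was 175 ± 129 normalized counts (SD, n = 6) for Kupffer cells against 33.6 ± 15.6 (SD, n = 6) for monocytes. By limma the log2 fold change was 2.24 with a standard error of 0.35 (adjusted p = 0.000109). Without Kupffer cell sample 4 the mean was 122 ± 12.6 (n = 5 samples) and the log2 fold change 1.93 (adjusted p = 2.45e-05).
For each of the genes the exact permutation test over all assignments of the 12 samples gave a two-sided p of 0.00216, the smallest it can give.

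**Figure D1:**
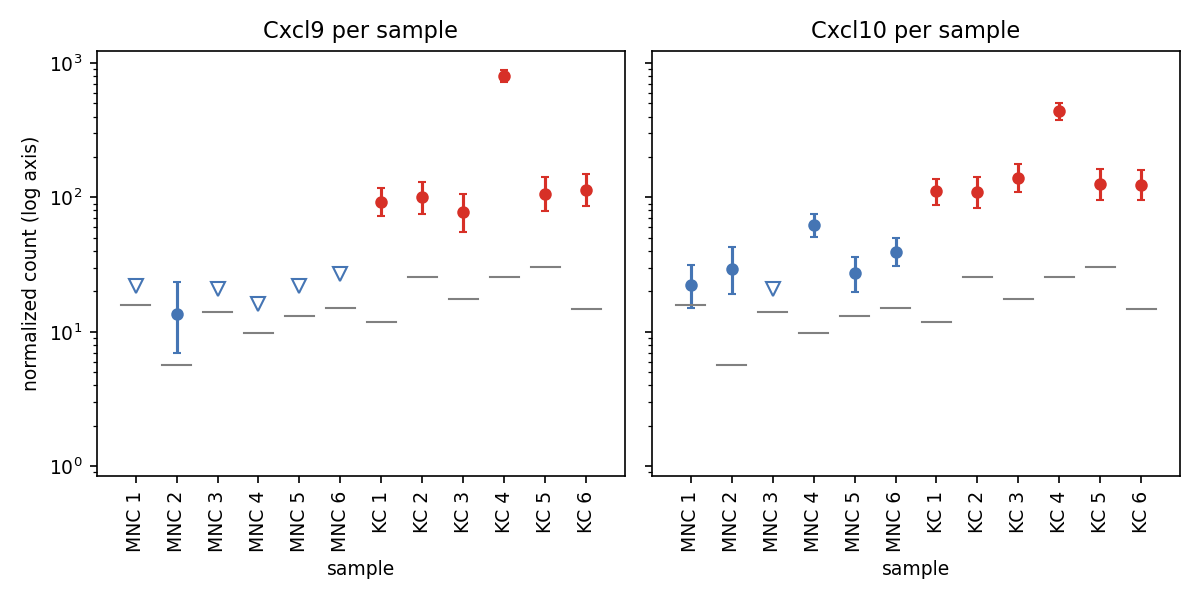
Normalized counts of Cxcl9 (left) and Cxcl10 (right) in the 6 monocyte (MNC, blue) and 6 Kupffer cell (KC, red) samples on a log axis; filled points are measured values with 95% Poisson intervals for counting error, open triangles are samples listed at the background, and grey bars mark the background of the lane multiplied by its factor. All Kupffer cell samples lie above all monocyte samples, and Kupffer cell sample 4 is the highest for both genes, at 801 for Cxcl9 and 438 for Cxcl10.

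Of the 248 genes tested, 35.1% were called higher in Kupffer cells and 21.4% lower, and in 25.8% every Kupffer cell sample lay above every monocyte sample. Cxcl9 and Cxcl10 belong to the first and the last of these shares, so that a rise as such was common here. By log2 fold change they ranked 18 and 23 among the 87 genes called higher. The division between higher and lower calls depended on the scaling: 62.1% of calls were higher with the authors' scaling, 42.0% with samples rescaled to the median of genes above the background and 47.7% after quantile normalization. With the background multiplied by the lane factor the share was 74.5%, and without monocyte sample 2 it was 50.0%. Cxcl9 and Cxcl10 were called higher under all of these, with log2 fold changes down to 2.57 for Cxcl9 and 1.73 for Cxcl10 under the other scalings.

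The ratio of Cxcl9 to Cxcl10 was compared between samples because it does not depend on the lane factor where both genes are measured. Its absolute size rests on how well each probe captures its target, which was not known, so that a ratio of 1 does not mean equal numbers of transcripts. In Kupffer cell samples 1 to 6 the ratio of normalized counts was 0.835, 0.917, 0.556, 1.83, 0.845 and 0.915. The exact 95% binomial interval of sample 4, 1.54 to 2.18, lay above those of the other 5 samples, whose highest upper bound was 1.35. Sample 3 had the lowest ratio, with an interval of 0.368 to 0.829.
In monocytes the ratio was measured in sample 2 alone, at 0.462 with an interval of 0.212 to 0.948. In samples 1, 4, 5 and 6 the listed background gave upper limits of 0.993, 0.256, 0.808 and 0.687. In these lanes it was higher than the multiplied background, which would give 0.710, 0.155, 0.478 and 0.380. In sample 3 both genes were at the background and no ratio exists. The limit of monocyte sample 4 was the lowest, since Cxcl10 was highest there while Cxcl9 was not detected.
With the listed values, the mean log2 ratio, from counts + 1, was -0.12 ± 0.55 (SD, n = 6) for Kupffer cells against -0.63 ± 0.74 (SD, n = 6) for monocytes, which differ by 0.51 on the log2 scale (exact permutation test, two-sided p = 0.214). This is also the test of whether the fold of Cxcl9 differed from that of Cxcl10. Monocyte sample 3, which has no ratio, entered it with its 2 background values, and samples 1, 4, 5 and 6 with the listed background for Cxcl9. Without monocyte sample 3 the difference was 0.64 (exact permutation p = 0.139). Its outcome depended on the background: with the background multiplied by the lane factor, an alternative chosen after seeing the data, the difference was 0.95 (exact permutation p = 0.0346), and with the listed background subtracted from both genes it was 2.03 (exact permutation p = 0.0476). Without Kupffer cell sample 4 it was 0.31 and without monocyte sample 4 it was 0.26, with exact permutation p of 0.442 and 0.429. A difference in ratio between the cell types was therefore not established by these samples, 5 of which gave no measured value of Cxcl9.

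**Figure D2:**
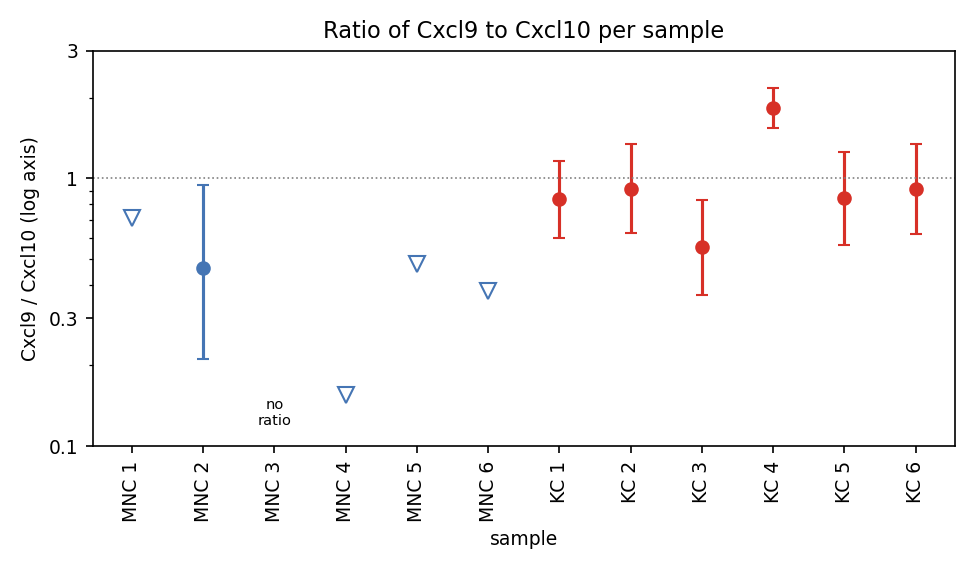
Ratio of Cxcl9 to Cxcl10 in each monocyte (MNC, blue) and Kupffer cell (KC, red) sample on a log axis, with exact 95% binomial intervals for counting error. Open triangles are ratios with the background multiplied by the lane factor. With the listed background the upper limits are higher, at 0.993, 0.256, 0.808 and 0.687 in monocyte samples 1, 4, 5 and 6. The dotted line marks a ratio of 1. Kupffer cell sample 4, at 1.83, is the only sample whose interval lies above 1.

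The genes upstream of Cxcl9 and Cxcl10 were compared next. Of 11 genes of the interferon gamma axis 7 were analysed here, and 4 of them rose and 1 fell in Kupffer cells. The shares over all 248 genes were 35.1% higher and 21.4% lower. The median log2 fold change was 0.59 over the 7 against 0.05 over all 248 genes. Ifng, the gene of interferon gamma itself, had 330.1, 263, 374, 291, 285 and 338 normalized counts in Kupffer cell samples 1 to 6. In monocytes it ranged from 20.7 to 32.7 with sample 6 at the background, so that the cell types were far apart and the Kupffer cell samples close to each other (log2 fold change 3.53, standard error 0.14, n = 6 samples each, limma). Sample 4, the highest for Cxcl9, was the third lowest of the Kupffer cell samples for Ifng.
Irf1, the gene of a transcription factor induced by interferon gamma, had 2463 ± 416 normalized counts (SD, n = 6) for Kupffer cells against 1400.2 ± 62.0 (SD, n = 6) for monocytes, which by limma was 0.80 on the log2 scale (adjusted p = 0.000126). Its cell types did not overlap. Il18rap, a subunit of the receptor for interleukin 18, rose by a log2 fold change of 1.19, and Il18, whose product drives interferon gamma production with interleukin 12, by 0.59. Il12a, the gene of the p35 chain of interleukin 12, fell by 0.98 on the log2 scale, and its cell types overlapped. Il12b and Il15 could not be compared, with 5 of 6 monocyte samples at the background for each, and 6 and 4 of 6 Kupffer cell samples.

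Of 13 genes of type I interferons and their factors 10 were analysed here, of which 2 rose and 3 fell. Among all 248 genes 35.1% were called higher and 21.4% lower. Ifna1 was at the background in all 6 monocyte and 5 of 6 Kupffer cell samples, and Ifnb1 in 5 of 6 of each, so that no level of these interferons can be compared. Stat2, the gene of a transcription factor of the type I response, rose from 223 ± 25.4 to 636 ± 145 normalized counts (log2 fold change 1.49, n = 6 samples each, limma), and Irf7 rose by a log2 fold change of 0.69. Irf5 fell by 0.64 and the sensors of nucleic acids Tlr7 and Tlr9 fell by 0.96 and 0.59 on the log2 scale. The number of genes called in this list was 9 with the background multiplied by the lane factor and 8 without monocyte sample 2, against 5.
All 11 genes induced by interferons that were listed were analysed here, and 9 rose in Kupffer cells, 1 fell and 1 was not called. Their median log2 fold change was 1.28, and the share called higher over all genes was 35.1%. Iigp1, a GTPase induced by interferon gamma, had the largest rise, from 97.7 ± 14.6 to 986 ± 689.9 normalized counts (log2 fold change 3.12, n = 6 samples each, limma). Ifit3, Ifit1 and Mx2, which act against viruses, followed with log2 fold changes of 2.00, 1.53 and 1.41. Without Kupffer cell sample 4, 8 of the 11 rose and 1 fell.

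Of 9 genes of TNF signalling and NF-kB, 3 rose and 1 fell, with a median log2 fold change of 0.22, and this share of higher genes was close to the 35.1% over all genes. Tnf rose in Kupffer cells, to 119 ± 23.2 normalized counts against 49.9 ± 13.5 in the monocytes (log2 fold change 1.26, n = 6 samples each, adjusted p = 0.000118 from limma). Traf2, an adaptor of the TNF receptors, rose by 0.84. The calls of Tradd (log2 fold change 0.50) and of Tnfaip3, an inhibitor of NF-kB (-0.42), were lost in 9 and 7 of 19 alternatives, with adjusted p up to 0.531 and 0.477. The genes of the NF-kB subunits Nfkb1, Rela and Relb were not called, with log2 fold changes of -0.12, 0.22 and 0.23.
Of the other CXC chemokine genes analysed here, 2 of 4 fell in Kupffer cells and the other 2 were close to the background. The share called lower over all genes was 21.4%. Cxcl1 and Cxcl2, whose products attract neutrophils through CXCR2, fell by 4.69 and 4.81 on the log2 scale. Cxcl3 and Cxcl5 stood at the background in 5 and 5 of 6 monocyte and in 5 and 6 of 6 Kupffer cell samples. Both were called under 3 alternatives that act on background values, higher with the background multiplied by the lane factor and lower with samples rescaled to the median or without monocyte sample 2, so that no direction is given for them.

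**Figure D3:**
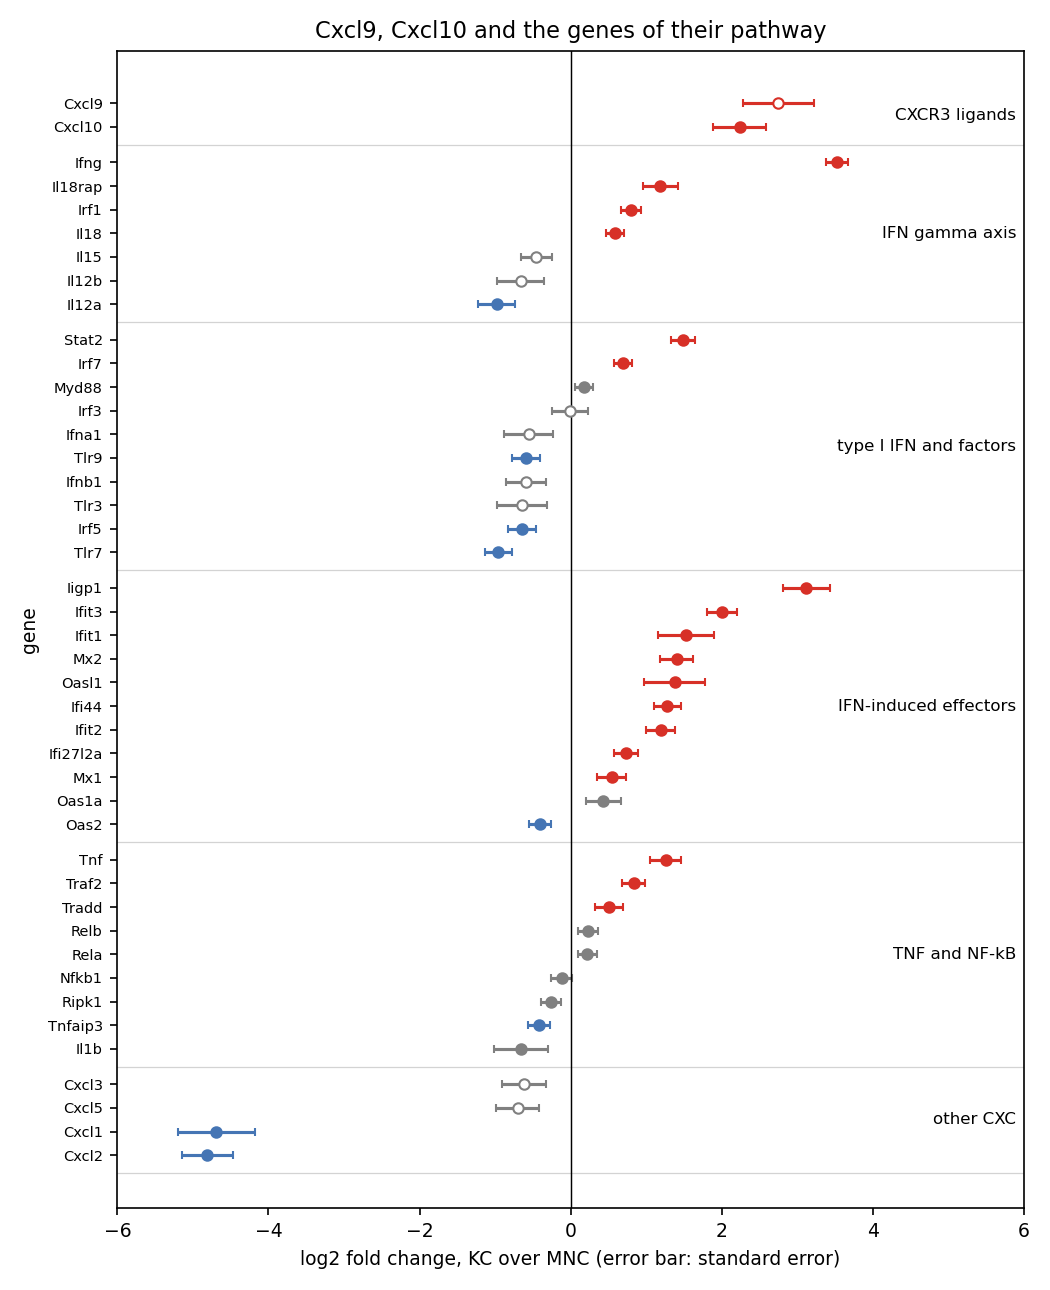
Log2 fold changes (KC over MNC) from limma on log2(normalized count + 1) of Cxcl9, Cxcl10 and the listed genes analysed here, with standard errors as bars; red genes were called higher and blue ones lower in Kupffer cells at an adjusted p under 0.05, grey ones were not called, and open points had at least 4 of 6 samples of a cell type at the background. Ifng (3.53), Iigp1 (3.12), Cxcl9 (2.75) and Cxcl10 (2.24) lie farthest to the right.

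Some genes of other cell types moved in the same direction as Cxcl9 and Cxcl10. For comparison, 35.1% of all genes were called higher and 21.4% lower. Of 12 genes of T and NK cells, the cells that carry CXCR3 and make interferon gamma, 8 were analysed here, 5 of them rose in Kupffer cells and none fell (median log2 fold change 0.74). These were Ccl5, Il18rap, Cd40lg, Fasl and Lta, with log2 fold changes of 1.69, 1.19, 0.96, 0.83 and 0.65, of which the call of Fasl was lost after quantile normalization (adjusted p = 0.302) and Lta then had a log2 fold change of -0.35 (adjusted p = 0.0749). The summed level of the 8 genes ranged from 4329.9 to 8470.0 normalized counts for monocytes and from 10439 to 36823 for Kupffer cells, where Ccl5 made up most of it, and Kupffer cell sample 4 had the lowest sum of its group. Of the 8 genes it was the lowest sample for 1, Ccl5, and the highest for 1, Il2. None of the 8 was at the background in all samples of a cell type. Cd4, Ltb and Il2 were not called, with log2 fold changes of 0.30, 0.33 and 0.59. Il18rap also belongs to the list of the interferon gamma axis.
All 9 hepatocyte genes analysed here, of 10 listed, rose in Kupffer cells, with summed levels of 58.1 to 243 for monocytes and 4316 to 14813 for Kupffer cells. In monocytes 6 of the 9 were not above the background in any sample, and Kupffer cell sample 4 had the third highest sum, 11004. Flt1, the only endothelial gene of 4 listed that was analysed here, had 9.01 to 27 normalized counts in monocytes, with 5 of 6 samples at the background, and 52.2 to 150.9 in Kupffer cells, with sample 4 the highest. Of the neutrophil genes 3 of 6 were analysed here, with none called higher and 1 called lower, Cxcr1. It was at the background in 5 of 6 monocyte and all 6 Kupffer cell samples, so that no direction is given for it. Of the stromal genes 2 of 3 were analysed here, with none called. No B cell gene of 3 listed was analysed here. The part of these cells in the levels of Cxcl9 and Cxcl10 was not tested, and in such bulk samples more cells of a type and more RNA per cell cannot be told apart.

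Between the Kupffer cell samples, Cxcl9 had the largest SD of log2 values, 1.25, of the 184 genes above the background in all 6, and Cxcl10 ranked 15 with 0.76, against a median over genes of 0.38. Without sample 4 these SDs were 0.21 and 0.15 and ranked 147 and 169, against a median of 0.37. The spread of both genes was therefore that of 1 sample, and without it both genes were among the less variable. Sample 4 was 3.02 above the mean of the others for Cxcl9 on the log2 scale, the largest gap of the 184 genes, and 1.84 above for Cxcl10, the fourth largest, while the median gap was 0.04. 16 genes were more than 1 above and 5 more than 1 below.
Other genes with a large gap in sample 4 were Cxcl1, with 187 normalized counts against 27.4 to 89.5 in the other Kupffer cell samples, Il1r1, the interleukin 1 receptor gene, with 1152 against 136 to 577, and Iigp1, with 2341 against 561 to 1071. Mafg, a small Maf transcription factor gene, had 1056.0 against 245 to 565, Ccl2, which attracts monocytes, 312 against 78.3 to 158, and Arg1, the gene of arginase 1, 3259 against 891 to 1991. The lane of sample 4 had 86491 counted molecules, the second lowest. 

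The genes induced by interferons did not share 1 pattern between the Kupffer cell samples. Of the 11, sample 4 was the highest for 3 (Mx1, Mx2 and Iigp1), sample 1 for 7 (Ifit1, Ifit2, Ifit3, Ifi44, Oas1a, Oas2 and Oasl1) and sample 3 for Ifi27l2a. Ifit1 had 780.2 normalized counts in sample 1, 277 in sample 6 and 139 to 159 in the others, sample 4 included. Oasl1 had 1215 in sample 1, 841 in sample 6 and 210.5 to 256 in the others. Sample 1 was also the highest for Irf1, at 3005, and for Ccl5, at 33369. Cxcl9 and Cxcl10 were not high in this sample, at 92.6 and 111. 

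**Figure D4:**
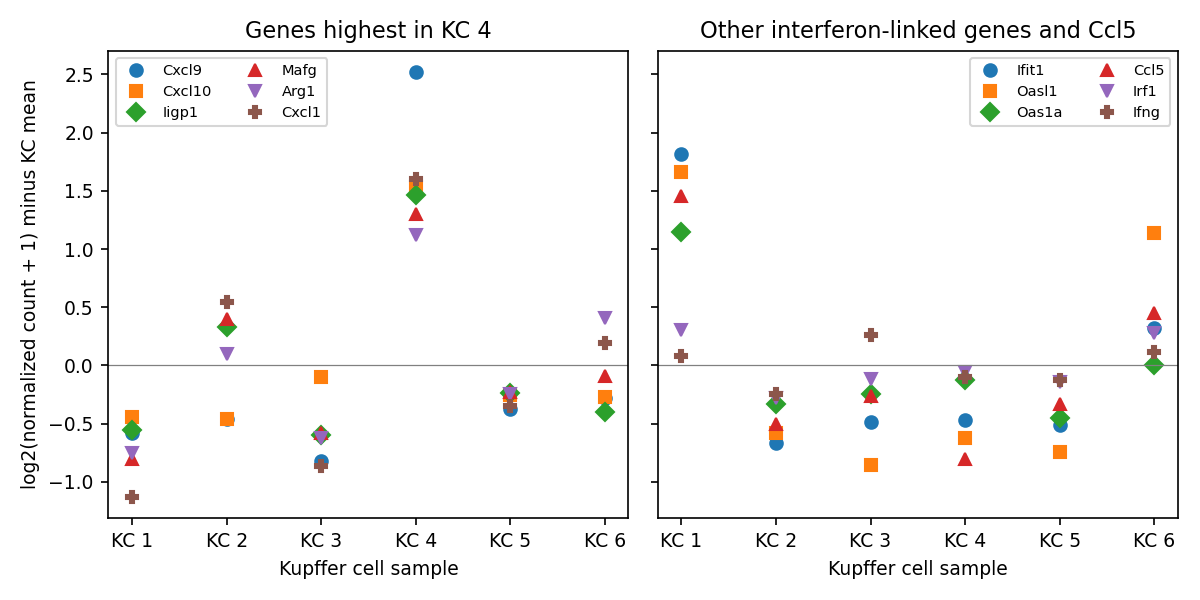
Log2(normalized count + 1) in each Kupffer cell (KC) sample, minus the mean of the 6 samples; left, Cxcl9, Cxcl10 and 4 other genes with a large gap in sample 4, and right, interferon-linked genes and Ccl5. The genes on the left were chosen for being highest in sample 4. Sample 1 is the highest for each on the right but Ifng, which was highest in sample 3 at 374. Those on the right are a choice too: Mx1, Mx2 and Stat2, also interferon-linked and not drawn, were highest in sample 4.

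Relations between samples were computed within each cell type, since the cell types form separate clusters. In Kupffer cells Cxcl9 and Cxcl10 had Pearson's r = 0.964 (exact permutation p = 0.121) and Spearman's rho = 0.314 (exact permutation p = 0.564) over 6 samples, and the p adjusted over the 6 relations computed were 0.725 and 0.919. Without samples 3 and 4, the 2 farthest from the median of Cxcl9, r was 0.824 over 4 samples, and without sample 4 alone it was -0.388 over 5. The relation rests on sample 4, and in the other 5 the ordering of the samples was not the same for both genes.
With Irf1, Cxcl9 had r of -0.080 in Kupffer cells (exact permutation p = 0.939; rho = 0.086, exact permutation p = 0.919), and Cxcl10 had -0.133 (exact permutation p = 0.881; rho = 0.086, exact permutation p = 0.919). Without samples 2 and 4, the 2 farthest from the median of Cxcl10, the latter was -0.737 over 4 samples, and without samples 3 and 4 that of Cxcl9 was -0.019. In monocytes Cxcl10 had r of -0.141 with Irf1 (exact permutation p = 0.796; rho = -0.086, exact permutation p = 0.919), and without samples 4 and 6 it was 0.943 over 4 samples. The 2 relations of Cxcl9 in monocytes compare background values in 5 of 6 samples and are not read. None of the 6 passed the threshold, and the lowest adjusted p for Pearson's r was 0.725.

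The pattern of Cxcl9 over all 12 samples was most like that of Iigp1, with a Pearson's r of log2 values of 0.955, followed by Mafg (0.948), Stat2 (0.922), Arg1 (0.914) and Mx2 (0.898), among the 160 genes above the background in all samples. Cxcl9 itself was a background value in 5 of the 12. For Cxcl10 these were Arg1 (0.954), Tnf (0.929), Mafg (0.921), Il18 (0.921) and Iigp1 (0.912). Between Cxcl9 and Cxcl10 themselves r was 0.925. These values include the difference between the cell types and are a description.
After the mean of each cell type was removed, the genes most like Cxcl9 were Iigp1 (0.876), Mafg (0.802), Cebpb (0.732), Ptk2 (0.732) and Stat2 (0.690). Those most like Cxcl10 were Cebpb (0.862), Ccl2 (0.823), Arg1 (0.792), Cxcl1 (0.756) and C4a (0.687). Between Cxcl9 and Cxcl10 themselves r was 0.704, which would rank 5 for each, but neither was among the 160 genes compared. In monocytes Cxcl9 was a background value in 5 of 6 samples. Cebpb encodes a transcription factor of the acute phase response. It was lower in Kupffer cells than in monocytes, but within the cell types sample 4 was high in both, at 1698 against 749 to 1118 normalized counts in Kupffer cells and at 3556 in monocytes, where sample 6 was higher at 3732. Over the 5 Kupffer cell samples without sample 4, 183 genes above the background in all Kupffer cell samples were compared, not the 160. The genes named were mostly others: Rps6ka5 (0.846), Mapk8 (0.816), C2 (0.816), Pdgfa (0.788) and Arg1 (0.783) for Cxcl9, and Smad7 (0.887), Il6 (0.878), Ccl3 (0.719), Ccr4 (0.709) and Nos2 (0.700) for Cxcl10. Over 5 samples such r can arise by chance among 183 genes, so that these names are a description.
In monocytes Cxcl10 and Cxcl1 had the same highest samples. Monocyte sample 4 was the highest and sample 6 the second for Cxcl10, at 62.6 and 39.3, for Cxcl1, at 3895 and 3412, and for Ccl2, at 869 and 426. This order was not particular to these chemokines. It also held for Il6, at 425 and 384, C4a, at 9323 and 8431, and Arg1, at 351 and 212.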

How the data were processed

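The authors deposited a normalized signal for every gene, obtained in nSolver 4.0 by multiplying the counts of each lane by 1 factor from its positive controls and housekeeping genes, by geometric means, with the background set to the highest of 8 negative controls. The labels give 100 ng of total RNA per reaction. To recover the factor, the step was sought that leaves every value over the background a whole multiple of it, to within 0.02, and such a step existed in all 12 lanes. As background values were not multiplied, no count model was used, and intervals cover counting error only. Genes were tested on log2(value + 1) by limma 3.58.1 in R 4.3.3, two-sided, with Benjamini-Hochberg adjustment over 248 genes and a threshold of 0.05; fold changes are on this scale and understate those of low genes. For single values exact permutation tests were used. Permutation tests and intervals came from scipy 1.17.1 in Python 3.11.15, tables from pandas 2.3.3 with numpy 2.4.6, and plots from matplotlib 3.10.9. The limma fit was tested on simulated data, with changes placed only in genes above the background in all 12 samples. Cxcl9 and Cxcl10 are not among such genes. Groups came from the sample titles.

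The genes, lists and alternatives were chosen with earlier results of these data known. Named are Cxcl9, Cxcl10, Irf1, Ifng, up to 4 called genes of each list with the largest change (all where 5 or fewer were called) and the 5 genes most like each ligand by Pearson's r. Alternatives concerned the pseudocount, a filter, scaling, background, a replicate block and each sample left out. Those chosen after seeing the data were the ratio with the background multiplied and with sign flips, and the relations without Kupffer cell sample 4. For 245 of 252 gene names the symbol was found in GRCm38.p6, and for 6 an older symbol. Every other gene, such as the NF-kB subunits, Il1r1 and Oasl1, was named after its values were seen. 1 gene is not reported here and was left out of the lists and relations.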

Additional observations from a re-analysis of the deposited data

Results flagged for a closer look

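Kupffer cell sample 4 was far from the other 5 in Cxcl9, where its gap to the next sample was 0.95 of the range of the group, in Cxcl10, where it was 0.906, and in the ratio of the genes, where it was 0.717. Each gap was above the 95% critical value of Dixon's test for 6 samples, which chance alone passes in about 1 of 20 groups. The 95% Poisson intervals of sample 4, which cover counting error only, were 722 to 886 normalized counts for Cxcl9 and 380.0 to 502 for Cxcl10, and the highest upper bounds among the other samples were 149 and 177. In the same sample Ifng and Irf1 were within the range of the other Kupffer cell samples, at 291 and 2344 normalized counts, and Ccl5 was the lowest of the 6. The part of these levels in the result was not tested.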

How the results depend on the processing

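Cxcl9 and Cxcl10 were called higher in Kupffer cells under all 20 alternatives each, with log2 fold changes of 2.25 to 3.28 and 1.73 to 2.43, and each sample left out in turn gave 2.25 to 2.91 and 1.93 to 2.43. Sample numbers are shared between the cell types, but the numbers were not taken as pairs, since same-numbered samples deviated together in 3 of 6 pairs only (r across genes over 0.1; range -0.23 to 0.40, highest for samples 4), and 2 of 6 correlated best with their own number, samples 4 and 5. With the number as a replicate block, Cxcl9 had a log2 fold change of 2.75 (adjusted p = 0.00240), Cxcl10 2.24 (5.99e-05), and 132 genes were called against 140. The standard error of Cxcl10 went from 0.35 to 0.18 with the block, and that of Cxcl9 from 0.47 to 0.49. Cxcl10 was highest in sample 4 of both cell types. Of the calls of Cxcl9, Cxcl10 and the genes named from the lists the block changed that of Tradd alone (adjusted p = 0.0866). The difference in ratio, 0.51, was 0.26 to 0.66 with a sample left out. With the block by sign flips it was 0.51 (exact permutation p = 0.406, in place of a linear model, which was not run). It passed the threshold at 0.95 with the background multiplied, and at 2.03 with the background subtracted and a floor of 1. The size of 2.03 depends on this floor. The cause of a difference in ratio was not tested. Kupffer cell sample 4 turned the r of Cxcl9 with Cxcl10 to -0.39 when left out. The calls in the list of type I interferon genes were 9 with the background multiplied and 5 to 8 with a sample left out, those of TNF and NF-kB 2 to 4 (2 without monocyte sample 3 or Kupffer cell sample 6), and those of the other CXC genes 4 with the background multiplied or samples rescaled to the median, and 2 to 4 with a sample left out (4 without monocyte sample 2). Lta turned to -0.35 after quantile normalization. Rescaling to the median moved the median of all genes by -0.18, scaling without Gapdh by 0.10 and multiplying the background by 0.53 on the log2 scale. The higher of the listed and multiplied background was 5.63 to 27 normalized counts in the monocyte lanes. Lower levels could not be detected, which limits Cxcl9 there.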
